A study of Mus musculus with 12 samples.

Results

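The acinar digestive enzyme genes described here are Cpa1, Cpb1, Cela2a, Cela3b, Ctrb1, Prss2, Pnlip, Cel and Clps. These 9 genes were taken by symbol from the 52962 gene identifiers of the count table, and all 9 passed the filter on low counts that 15598 genes passed. The RNA came from pancreatic islets of NOD females, which become diabetic through an autoimmune attack on their β-cells. No treatment or engineered allele is given for any sample, so that strain and sex were shared by all 12 libraries. Islet cells had been sorted by their autofluorescence into a β and a non-β fraction, and cells carrying the leukocyte antigen CD45 were removed in the sort according to the study's methods. Mice were 4 or 8 weeks old, and the 2 fractions at the 2 ages gave 4 groups of 3 replicates. The methods describe overnight culture of the islets before sorting, and the study's legends describe each replicate as a pool of mice; neither is in the labels.

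Acinar cells form most of the exocrine pancreas and lie directly around the islets. They make digestive enzymes on the rough endoplasmic reticulum, store them in zymogen granules and release them into the ducts when food arrives. Most of the proteases are made as inactive precursors that trypsin activates in the gut. The enzyme genes are among the most strongly transcribed genes of the acinar cell, and a complex of the transcription factors PTF1A and RBPJL binds near many of them. Islet endocrine cells are not known for making them, which is why these transcripts serve as markers of acinar cells in islet preparations.

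The members fall into proteases and lipid-digesting proteins. Cpa1 (ENSMUSG00000054446, chr6:30639218-30645363, plus strand) and Cpb1 (ENSMUSG00000011463, chr3:20248264-20275733, minus strand) encode carboxypeptidases, which trim amino acids from the end of a peptide. Cela2a (ENSMUSG00000058579, chr4:141814962-141826160, minus strand) and Cela3b (ENSMUSG00000023433, chr4:137420999-137430540, minus strand) encode elastase-like serine proteases. Ctrb1 (ENSMUSG00000031957, chr8:111686519-111691010, minus strand) encodes chymotrypsinogen B and Prss2 (ENSMUSG00000057163, chr6:41521787-41525079, plus strand) a trypsinogen. Pnlip (ENSMUSG00000046008, chr19:58652498-58681788, plus strand) encodes pancreatic lipase and Clps (ENSMUSG00000024225, chr17:28558149-28560766, minus strand) its cofactor colipase. Cel (ENSMUSG00000026818, chr2:28555795-28563403, minus strand) encodes the bile salt-dependent lipase. All are protein-coding genes of build GRCm38 in the GENCODE M21 annotation, and coordinates are counted from 1.

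Reads of these genes can be shared with relatives. Of the 31-base words in the transcripts, 26.0% of those of Cela3b also occur in Cela3a, 17.2% of those of Prss2 in Try4 and 16.6% of those of Cela2a in Ctrc, so the values of these 3 genes are uncertain in how the counting divided them. Cela2a also overlaps Casp9 and Ctrc in the annotation, and Ctrb1, Cel and Clps overlap the small or unnamed genes Mir7076, Gm13381 and Mir6969. Cpa1, Ctrb1, Pnlip, Cel and Clps shared 0% of such words with another gene, and Cpb1 0.431%.

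The bases just upstream of 4 members are shown because the members moved together and their annotated start was the same in RefSeq and GENCODE. RefSeq promoter sequence (GRCm38.p6) was at hand for 8 members, and Clps had no entry. Each run holds the 250 bases before the start of transcription on the gene's own strand. Capitals mark the letters CANNTG, the E-box that basic helix-loop-helix factors such as PTF1A bind, and TTCCCA read on either strand, the core bound by RBPJ and RBPJL. The windows are chr6:30638968-30639217 for Cpa1, chr3:20275734-20275983 for Cpb1, chr8:111691011-111691260 for Ctrb1 and chr2:28563404-28563653 for Cel.
Cpa1: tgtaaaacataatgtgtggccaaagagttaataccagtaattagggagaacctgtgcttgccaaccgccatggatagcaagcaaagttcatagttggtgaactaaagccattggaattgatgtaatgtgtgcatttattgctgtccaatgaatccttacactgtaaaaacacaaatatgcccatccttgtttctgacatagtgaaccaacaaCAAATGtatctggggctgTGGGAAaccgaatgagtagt
Cpb1: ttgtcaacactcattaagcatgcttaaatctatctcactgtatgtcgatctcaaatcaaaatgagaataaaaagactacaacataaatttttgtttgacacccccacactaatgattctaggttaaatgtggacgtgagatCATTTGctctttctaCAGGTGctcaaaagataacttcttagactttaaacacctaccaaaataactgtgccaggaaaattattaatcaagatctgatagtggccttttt
Ctrb1: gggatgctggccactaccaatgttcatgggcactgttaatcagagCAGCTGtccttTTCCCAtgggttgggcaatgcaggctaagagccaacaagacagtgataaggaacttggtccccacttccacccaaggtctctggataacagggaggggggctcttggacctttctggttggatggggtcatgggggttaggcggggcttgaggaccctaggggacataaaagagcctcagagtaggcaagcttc
Cel: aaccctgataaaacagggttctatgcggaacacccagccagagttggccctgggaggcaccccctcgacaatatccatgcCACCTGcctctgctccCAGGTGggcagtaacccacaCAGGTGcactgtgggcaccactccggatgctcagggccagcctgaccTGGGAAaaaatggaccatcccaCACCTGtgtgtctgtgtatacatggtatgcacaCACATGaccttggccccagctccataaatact
The motif counts that follow use the RefSeq start for all 8 windows. For Cela3b, Cela2a, Prss2 and Pnlip it differed from the GENCODE start, and for Pnlip the positions were 58670365 and 58652498. An E-box was found in 7 of the 8 windows, against 66.2% of 32851 promoters of the same length, and only Pnlip lacked one. TTCCCA was found in 6 of 8, against 21.6% of all promoters, with Cpb1 and Cela3b lacking it. Both motifs with starts 6 to 25 bases apart were found in Cel, Cpa1 and Ctrb1, 3 of 8, against 4.14% of all promoters. In Cpa1 they began 38 and 20 bases before the start of transcription, and in Ctrb1 205 and 194 bases before it. These matches describe letters in the sequence and were not tested for binding.

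The libraries held 13755106 to 27040652 estimated counts. Values below are CPM, counts relative to a common library size after scaling between libraries, means are given ± SD over 3 replicates, and a gene was called when its limma-voom p-value adjusted over all tested genes was under 0.05. The fractions matched their labels: summed β-cell markers were 45916 to 111930 CPM in the β libraries against 2757 to 5764 CPM in the non-β libraries, and summed α-cell markers 1425 to 9053 CPM against 103310 to 132940 CPM. Ptprc, which encodes CD45, had 0 to 1 count in β libraries and 0 to 16 in non-β libraries. Of 10 leukocyte markers listed, 2 passed the filter, Cd68 and Cd79a, and both were called higher in β-cells at both ages. Mean Cd68 was 48.7 and 69.5 CPM in β-cells at 4 and 8 weeks and 9.14 and 16.5 CPM in non-β-cells. Cd79a was at 3.07 and 3.58 CPM in β-cells and at 0.428 and 0.725 CPM in non-β-cells. The 9 digestive enzyme genes together made up 0.000194% to 0.0898% of a library's counts. Which cells these transcripts came from was not tested. In bulk samples, fewer acinar cells and less RNA per acinar cell cannot be told apart.

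The carboxypeptidase Cpa1 stood at 18.5, 8.87 and 11.0 CPM in β-cells at 4 weeks (replicates 1, 2 and 3 in turn) and at 85.5, 50.5 and 45.7 CPM in 8-week β-cells. In non-β-cells it stood at 1.91, 0.244 and 5.81 CPM at 4 weeks and at 86.3, 20.6 and 16.5 CPM at 8 weeks. The ages did not overlap in either fraction, and at 8 weeks the non-β library numbered 1 was as high as the highest β library. Cpb1 measured 8.44, 3.44 and 7.74 CPM in 4-week and 35.7, 16.5 and 16.4 CPM in 8-week β-cells. In non-β-cells Cpb1 gave 0.0382, 0.147 and 1.97 CPM at 4 weeks, which are 1, 3 and 40 counts, and 33.4, 5.37 and 7.34 CPM at 8 weeks. Both carboxypeptidases were thus lowest in non-β-cells at 4 weeks.

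The elastase gene Cela2a measured 23.6, 9.78 and 17.8 CPM in 4-week and 68.4, 42.7 and 32.8 CPM in 8-week β-cells. Its non-β values were 1.80, 0.0489 and 6.89 CPM at 4 weeks and 59.7, 15.3 and 12.5 CPM at 8 weeks. The lowest of these, in the non-β library numbered 2 at 4 weeks, is a single read. Cela3b measured 11.8, 5.46 and 10.6 CPM in 4-week and 49.3, 21.8 and 20.7 CPM in 8-week β-cells. In non-β-cells Cela3b measured 0.611, 0 and 1.62 CPM at 4 weeks and 36.3, 9.10 and 7.44 CPM at 8 weeks. A count of 0 in that 4-week library allows up to 0.147 CPM, the level of 3 counts.

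Ctrb1, the chymotrypsinogen gene, measured 70.2, 35.4 and 60.5 CPM in 4-week and 414, 206 and 187 CPM in 8-week β-cells. In non-β-cells it measured 11.3, 1.47 and 19.3 CPM at 4 weeks and 280, 82.3 and 66.6 CPM at 8 weeks. The lowest library held 30 Ctrb1 counts, so this gene was measured above 3 counts in all 12 libraries. The trypsinogen gene Prss2 measured 15.8, 7.08 and 11.3 CPM in 4-week and 82.4, 42.6 and 42.9 CPM in 8-week β-cells. Its non-β values were 3.63, 0 and 4.48 CPM at 4 weeks and 58.6, 20.96 and 18.1 CPM at 8 weeks. As for Ctrb1, the 8-week libraries lay above the 4-week libraries in both fractions.

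Among the lipid-digesting proteins, the lipase gene Pnlip measured 16.8, 12.5 and 19.4 CPM in 4-week and 85.9, 38.5 and 35.9 CPM in 8-week β-cells. In non-β-cells Pnlip measured 2.02, 0 and 4.92 CPM at 4 weeks and 84.0, 20.9 and 14.3 CPM at 8 weeks. Pnlip was the member with the smallest relative spread in 4-week β-cells, at 16.2 ± 3.49 CPM. Cel measured 17.6, 5.26 and 9.85 CPM in 4-week and 62.0, 36.2 and 25.7 CPM in 8-week β-cells. Its non-β values were 1.57, 0 and 3.30 CPM at 4 weeks and 55.2, 10.9 and 10.9 CPM at 8 weeks. Clps, the cofactor of Pnlip, measured 3.25, 1.74 and 2.34 CPM in β-cells at 4 weeks and 12.1, 7.04 and 5.85 CPM in them at 8 weeks. In non-β-cells Clps measured 0.267, 0 and 1.62 CPM at 4 weeks and 9.94, 2.61 and 1.28 CPM at 8 weeks. Clps was the one member whose non-β ages overlapped, since its lowest 8-week value lay below its highest 4-week value.

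**Figure D1:**
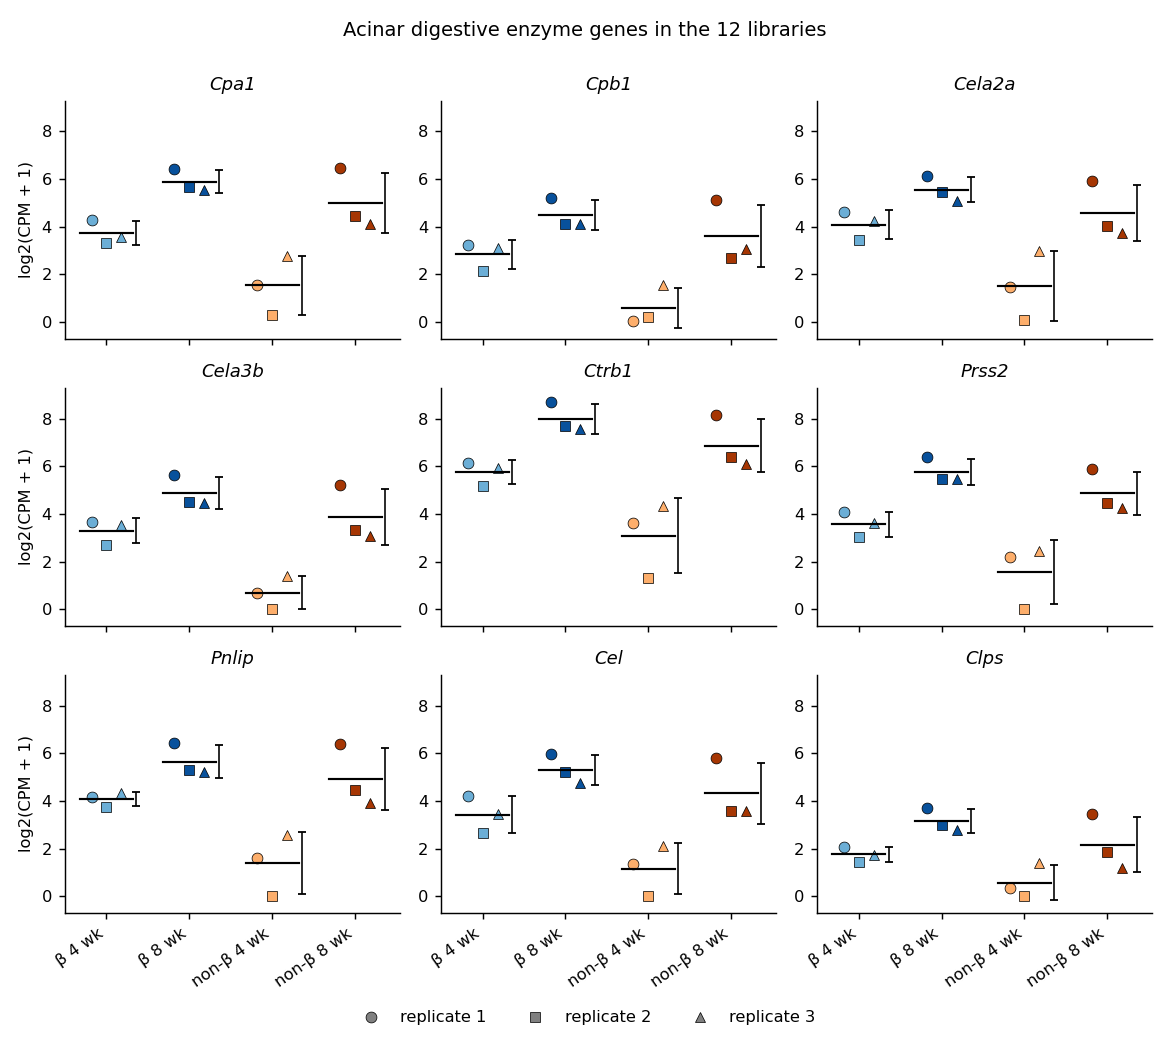
Level of each of the 9 genes (vertical axis, log2 of CPM + 1) in the 12 libraries by group (horizontal axis). Symbols mark the replicate number, horizontal lines the mean of 3 replicates and bars beside them the SD. In every panel the β libraries are lower at 4 than at 8 weeks, the mean of the 4-week non-β libraries is the lowest, and the 8-week non-β library numbered 1 lies near the 8-week β libraries.

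Digestive enzyme transcripts were higher in β-cells at 8 weeks than at 4 weeks. The sum of the 9 genes went from 142 ± 48.8 CPM to 590 ± 265 CPM, a ratio of 4.16 between means. Cpa1 rose by 2.28 on the log2 scale (SE 0.57, adjusted p = 0.0156), Ctrb1 by 2.25 (SE 0.56, adjusted p = 0.0145) and Prss2 by 2.33 (SE 0.55, adjusted p = 0.0109). Cel rose by 2.04 (SE 0.63, adjusted p = 0.0410) and Cela3b by 1.70 (SE 0.55, adjusted p = 0.0496). The estimates for Cpb1, Cela2a, Pnlip and Clps were 1.83, 1.54, 1.62 and 1.75, with adjusted p-values of 0.0524 to 0.0785, so 4 members missed the threshold.

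In β-cells, then, 5 of 9 members were called higher at 8 weeks, where 8.59% of all tested genes were. The 3 values at 8 weeks lay above the 3 at 4 weeks for 9 of 9 members, against 20.7% of tested genes. The median difference over the members was 1.83, beside 0.02 over all tested genes. The number called depended on single libraries and on the test. It was 3 without the 4-week β library numbered 1, 1 without number 2 and 3 without number 3, and it was 1, 3 and 4 without the 8-week β libraries numbered 1, 2 and 3. It was 3 with edgeR's quasi-likelihood test and 1 with DESeq2, with the estimates positive in every case.

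In non-β-cells the members were also higher at 8 weeks. The sum went from 25.005 ± 24.1 CPM to 349 ± 308 CPM, a ratio of 13.9 between means. The SDs were nearly as large as the means, with sums of 23.1, 1.91 and 49.97 CPM at 4 weeks and of 704, 188 and 155 CPM at 8 weeks. Ctrb1 rose by 4.03 on the log2 scale (SE 0.85, adjusted p = 0.00509) and Cpa1 by 4.47 (SE 1.36, adjusted p = 0.0392). The other 7 estimates were 3.98 to 5.68 with adjusted p-values of 0.0528 to 0.130. For Cela3b, Prss2, Pnlip, Cel and Clps, with 0 counts in a 4-week library, the fitted value depends on how the model treats zeros.

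Thus 2 of 9 members were called higher at 8 weeks in non-β-cells, where 11.6% of tested genes were called higher. The ages did not overlap for 8 of 9 members, against 19% of tested genes, with Clps the exception. Their median difference was 5.15, beside 0.01 over all tested genes. The count was 8 with edgeR and 9 with DESeq2, and 1 without the 4-week non-β library numbered 1 or number 3. Without both 8-week libraries numbered 1, an omission added after the data had been seen, 6 members were called. Ctrb1 was called in this comparison under all 16 alternatives.

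Markers of other cell types also moved with age, and their part in these results was not tested. In the non-β fraction 8 of 8 endothelial markers were called higher at 8 weeks, with summed levels of 49.7 to 93.6 CPM at 4 weeks and 387 to 1058 CPM at 8 weeks. All 8 mesenchymal markers were called higher too, from 105 to 303 CPM at 4 weeks to 682 to 1064 CPM at 8 weeks. The highest endothelial sum was in the 8-week library numbered 1, where the digestive enzymes were also highest, while the mesenchymal sum was lowest there. Of 8 duct cell markers 5 were called higher, and their sum, mostly Krt7, went from 347 to 447 CPM to 504 to 575 CPM. In β-cells 1 of 8 mesenchymal markers was called higher, but 8 of 8 estimates were positive with a median of 1.79, and their sum went from 4.27 to 15.4 CPM at 4 weeks to 26.2 to 53.7 CPM at 8 weeks, with no overlap. There 0 of 8 endothelial markers were called higher. Their sum was 6.85 to 16.1 CPM at 4 weeks and 12.9 to 16.3 CPM at 8 weeks. Of the duct markers, 1 of 8 was called higher with age in the β fraction. Their sum was 793 to 1060 CPM at 4 weeks and 766 to 835 CPM at 8 weeks. Krt7 made up most of it, with means of 855 and 739 CPM. Set against the non-β fraction, 2 of 8 duct markers were called higher in the β fraction at 4 weeks and 4 lower. At 8 weeks 1 was called higher, Krt7, and 7 lower. Endocrine markers of the β fraction moved as well: 4 of 4 α-cell markers and Ppy, the hormone gene of PP cells, were called lower at 8 weeks and 4 of 6 β-cell markers higher. The α-cell sum in β libraries was 6924 ± 1895 CPM at 4 weeks and 2004 ± 528 CPM at 8 weeks, and the β-cell sum 59173 ± 18946 and 108640 ± 2909 CPM. No duct, endothelial or mesenchymal marker was at 0 in all 3 libraries of any group.

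At 4 weeks the digestive enzyme transcripts were more abundant in the β than in the non-β fraction. The β sum of 142 ± 48.8 CPM was 5.68 times the non-β sum of 25.005 ± 24.1 CPM, and for 9 of 9 members each β library exceeded each non-β library, against 26.5% of tested genes. Ctrb1 was higher by 2.89 on the log2 scale (SE 0.86, adjusted p = 0.0144) and was the 1 of 9 members called. The share of members called thus lay below the 24.9% of tested genes called higher in β-cells. The other 8 estimates were 3.01 to 4.80, with SEs of 1.39 to 2.24 and adjusted p-values of 0.0609 to 0.140. The number called was 8 with edgeR and 7 with DESeq2, was 2 without the β library numbered 2, and was 0 without both 4-week libraries numbered 3.

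Same-numbered libraries can be set beside each other at 4 weeks. The β sum was 186 CPM against 23.1 CPM in the non-β library numbered 1, 89.5 against 1.91 CPM in number 2 and 150 against 49.97 CPM in number 3. These are ratios of 8.04, 47.0 and 3.01. In number 2, the 39 non-β counts of all members together comprised 30 of Ctrb1, 5 of Cpa1, 3 of Cpb1 and 1 of Cela2a. In number 1, Ctrb1 was 6.21 times as high in the β library, Prss2 4.34 times and Cela3b 19.3 times, and in number 3 the ratios of these genes were 3.13, 2.52 and 6.51. The order of the 3 numbers differed between the fractions, with β-cells highest in number 1 and non-β-cells highest in number 3.

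At 8 weeks no member was called between the fractions. The β sum was 590 ± 265 CPM and the non-β sum 349 ± 308 CPM, a ratio of 1.69. The estimates were 0.66 to 1.12 on the log2 scale with SEs of 0.46 to 0.59 and adjusted p-values of 0.107 to 0.344. Ctrb1 was estimated higher in β-cells by 1.11 (95% confidence interval -0.06 to 2.28) and Pnlip by 0.66 (-0.53 to 1.85). No member was called by limma-voom, edgeR or DESeq2, 0 had an unadjusted p under 0.05, and 23.6% of tested genes were called higher in β-cells.

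The fractions overlapped at 8 weeks for every member, with 0 of 9 separated, against 32.4% of tested genes. The overlap came from the non-β library numbered 1. Without it all 9 members were called higher in β-cells, and without both 8-week libraries numbered 1 it was 6. The same-numbered sums were 895 against 704 CPM in number 1, 462 against 188 CPM in number 2 and 413 against 155 CPM in number 3, with ratios of 1.27, 2.46 and 2.67. The β library was the higher in 6 of 6 same-numbered pairs for 8 of 9 members, against 27.9% of tested genes, and Cpa1 was the exception, at 85.5 against 86.3 CPM in number 1 at 8 weeks. The 4-week pairs add nothing to this count, since at that age each β library exceeded each non-β library for 9 of 9 members.

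Values of the β-cell genes Ins2, for insulin, and Iapp, for amylin, can be set beside these pairs. At 8 weeks the non-β sum of the digestive enzymes was 78.6%, 40.7% and 37.5% of the β sum in numbers 1, 2 and 3, and Ins2 in the same non-β libraries was 2.22%, 2.51% and 2.60% of its β level and Iapp 14.5%, 15.1% and 17.2%. At 4 weeks the digestive enzymes were at 12.4%, 2.13% and 33.2%, Ins2 at 2.22%, 1.64% and 1.46% and Iapp at 15.6%, 15.4% and 13.0%, so Iapp lay above the digestive enzymes in numbers 1 and 2. The order of the sums was 1, 2, 3 in both fractions at 8 weeks, and 6 of 9 members had the same order in both. Whether equal numbers mark the same islets is not given in the labels.

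**Figure D2:**
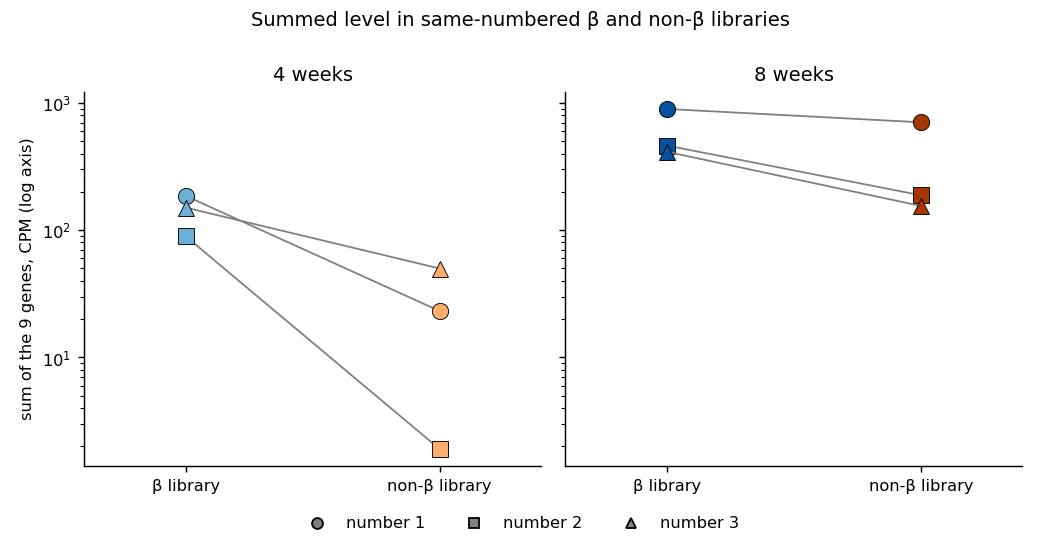
Sum of the 9 genes (vertical axis, CPM, log axis) in β and non-β libraries at 4 weeks (left) and 8 weeks (right), with lines joining libraries of the same number. All 6 lines fall from β to non-β, by ratios of 3.01 to 47.0 at 4 weeks and 1.27 to 2.67 at 8 weeks.

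A difference between the fractions in the change with age was not shown. The age by cell type interaction, the β change minus the non-β change, was negative for 9 of 9 members, from -1.78 for Ctrb1 to -3.89 for Pnlip. The SEs were 1.02 to 2.30 and the adjusted p-values 0.374 to 0.543. No member was called by limma-voom, edgeR or DESeq2, and 0 had an unadjusted p under 0.05, where 5.13% of tested genes were called in either direction. The 95% confidence interval for Ctrb1, the most precisely measured member, was -3.98 to 0.42.

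**Figure D3:**
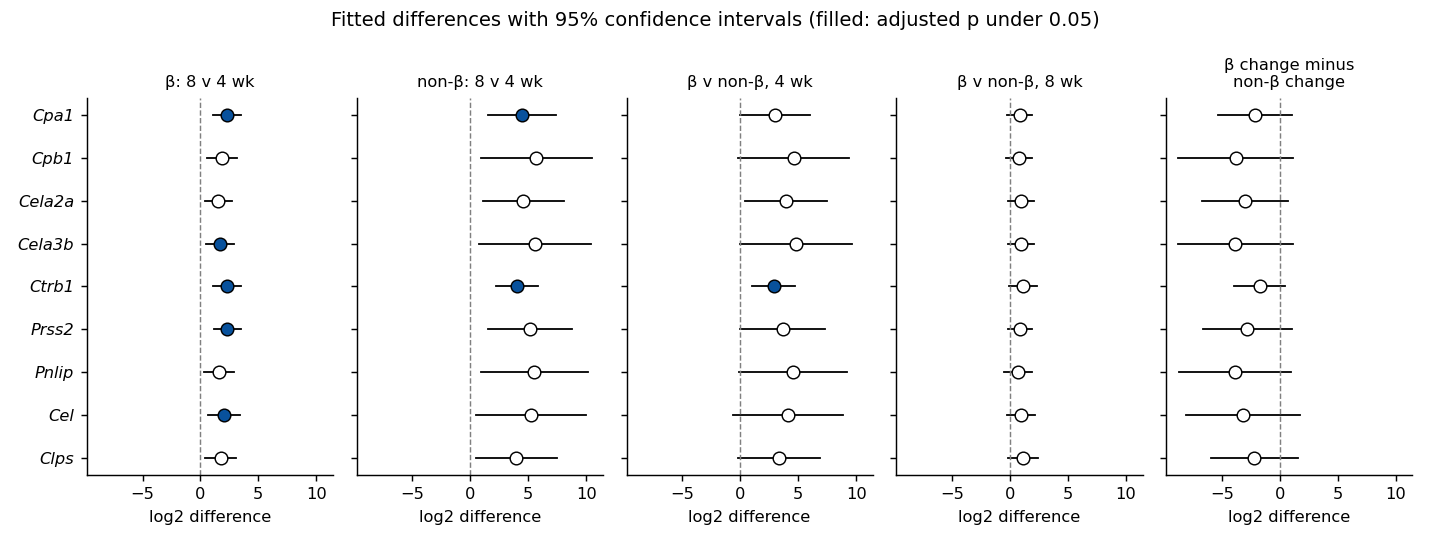
Log2 difference of each gene (horizontal axis) with its 95% confidence interval in the 5 comparisons (panels), with filled points for an adjusted p under 0.05. Intervals are wide where 4-week non-β libraries enter. They are narrower in β-cells by age, where 5 of 9 points are filled, and between the fractions at 8 weeks, where 0 of 9 are.

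Ctrb1 held the largest share of the summed counts in each library. Leaving aside the 4-week non-β library with 39 counts, Ctrb1 contributed 37.8% to 48.8% of the summed counts in the other 11 libraries, with a median of 43.0%. Shares of counts also depend on transcript length, and within a library a larger share of Ctrb1 leaves less for the other members. The shares are therefore not independent of each other. Those of Cela2a, Cela3b and Prss2 also carry the uncertainty in read division given above. Cpa1 contributed 7.31% to 12.3%, Pnlip 8.32% to 14.0%, Cela2a 7.63% to 13.8% and Prss2 7.49% to 15.7%. Cel contributed 5.79% to 9.48%, Cela3b 2.64% to 7.03%, Cpb1 0.165% to 5.14% and Clps 0.828% to 3.25%. The share of Ctrb1 in β-cells was 37.8%, 39.5% and 40.2% at 4 weeks and 46.2%, 44.6% and 45.3% at 8 weeks, so the ages did not overlap. In β-cells the share of Prss2 was likewise higher at 8 weeks without overlap (7.49% to 8.47%, then 9.20% to 10.4%). The shares of Cela2a (10.9% to 12.7%, then 7.63% to 9.25%), Cela3b (6.10% to 7.03%, then 4.72% to 5.51%) and Clps (1.55% to 1.95%, then 1.35% to 1.52%) were lower without overlap, and those of the other 4 members overlapped. No rate over other genes is available for such shares, so these separations are a description.

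A single low share stood out. Cpb1 had 1 of 606 member counts in the 4-week non-β library numbered 1, or 0.165% (exact binomial 95% interval 0.00418% to 0.916%, counting error only). Its lowest share in the other 10 of those 11 libraries was 2.86%, in the 8-week non-β library numbered 2. In the 39-count library Ctrb1 made up 76.9% (60.7% to 88.9%), above its share in all other libraries.

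**Figure D4:**
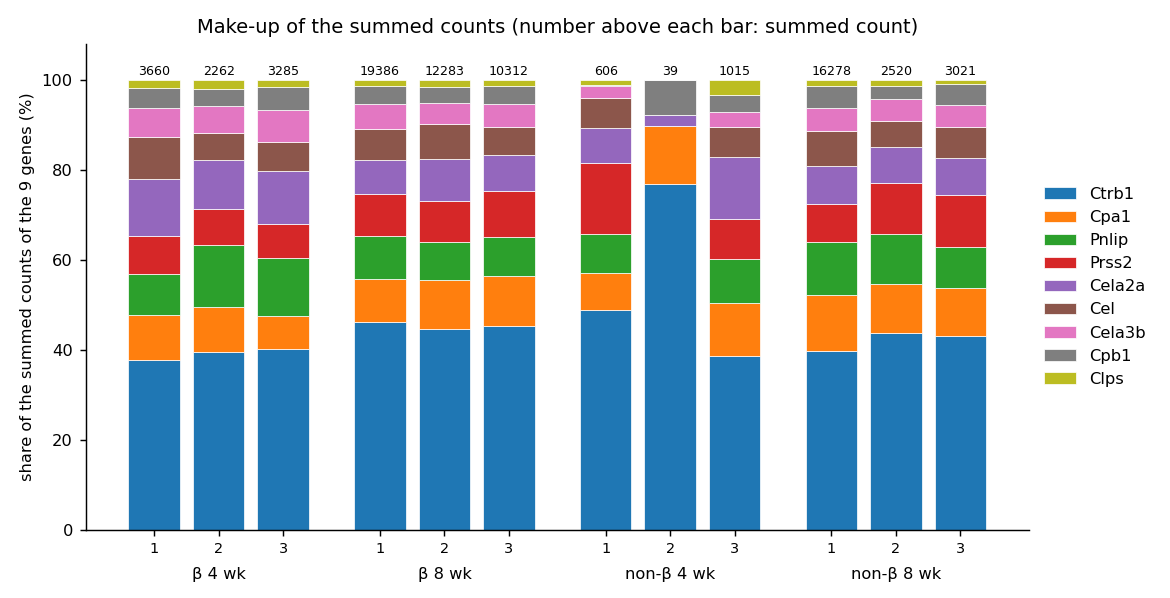
Share of each gene in the summed counts of the 9 genes (vertical axis, %) in the 12 libraries, labelled by replicate number and group, with the summed count above each bar. Ctrb1 is the largest block in every library, and the 4-week non-β library numbered 2 rests on 39 counts.

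Per kilobase of transcript, Ctrb1 was the most abundant member in every group, with mean levels of 63.1 and 306 CPM per kilobase in 4-week and 8-week β-cells and of 12.2 and 163 in the non-β groups. In both β groups and in non-β-cells at 8 weeks its lowest library lay above the highest library of the gene next in the order, although in the last of these groups Pnlip reached 76.7 CPM per kilobase in its highest library, against 75.9 for the lowest of Ctrb1. Cpb1 was the lowest per kilobase in all 4 groups, at 2.41, 8.42, 0.264 and 5.66 CPM per kilobase. Between these ends the order changed between groups: Cela2a ranked second in β-cells at 4 weeks and Prss2 second elsewhere. Of the 8 neighbouring pairs in the order, the ranges of 2 did not overlap in 4-week β-cells, nor those of 1 in the 8-week groups of either fraction, and 0 were apart in 4-week non-β-cells.

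The rest of the acinar programme was read from a list of 37 other acinar genes, of which 26 passed the filter. Amy2a2, Amy2a3 and Amy2a4 had the same counts as each other in every library and were taken as 1 measurement, which left 24. In β-cells 13 of the 24 were called higher at 8 weeks and 0 lower, with a median difference of 1.62, where 8.59% of tested genes were called higher. In non-β-cells 7 were called higher and 1 lower, with a median of 3.93, against 11.6% of tested genes higher. Between the fractions, 3 were higher in β-cells at 4 weeks and 2 lower, and 2 were higher and 2 lower at 8 weeks, against 24.9% and 23.6% of tested genes higher. In these last 2 comparisons the share of the list called higher lay below that of all tested genes. In the interaction 1 of the 24 was called, near the 5.13% of tested genes called there in either direction.

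Among amylases and lipases, the amylase gene Amy2b rose by 2.16 with age in β-cells (adjusted p = 0.0260), from 16.2 ± 8.16 to 66.9 ± 30.9 CPM. Amy2a5, of the same cluster, was estimated at 1.88 (adjusted p = 0.184). It had 0 to 2729 counts in the 8-week non-β libraries. Sharing of reads among the amylase genes was not measured, so how the counting divided them is uncertain. For the lipase relatives the β rise was 2.10 for Pnliprp1 (adjusted p = 0.0202) and 3.08 for Pnliprp2 (adjusted p = 0.0225). Of the zymogen granule proteins, Gp2, the main granule membrane glycoprotein, rose by 2.00 with age in β-cells (adjusted p = 0.0128) and by 5.74 in non-β-cells (adjusted p = 0.0470). Sycn, the granule protein syncollin, was up by 2.42 in the β fraction (adjusted p = 0.0132) and by 6.92 in non-β-cells (adjusted p = 0.0495). Sycn in the β fraction also exceeded the non-β level by 5.91 at 4 weeks (adjusted p = 0.0431) and by 1.41 at 8 weeks (adjusted p = 0.0338). The granule lectin gene Zg16 was higher in β-cells by 5.27 at 4 weeks (adjusted p = 0.0171), as was the Amy2a2, Amy2a3 and Amy2a4 measurement by 4.70 (adjusted p = 0.0482). In the 4-week non-β libraries Sycn had 0 to 1 count, Gp2 1 to 5 and Zg16 0 to 10, so the fitted differences that use those libraries depend on how the model treats low counts.

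Some genes on that list did not follow the digestive enzymes. The elastase gene Cela1 rose with age in both fractions, by 1.496 (adjusted p = 0.00858) and 1.16 (adjusted p = 0.0246), and its difference between the fractions was -0.57 at 4 weeks (adjusted p = 0.198). The transcription factor gene Bhlha15, which drives secretory maturation of acinar cells, rose by 0.45 in the β fraction (adjusted p = 0.0244) and fell by 0.60 in non-β-cells (adjusted p = 0.0130). Bhlha15 was the 1 gene of the list called in the interaction, at 1.05 (adjusted p = 0.00679), and it was higher in β-cells at 8 weeks by 1.13 (adjusted p = 2.7e-05). Nr5a2, a nuclear receptor of acinar cells, differed between β and non-β fractions by -3.22 on the log2 scale at 4 weeks (adjusted p = 0.0132) and -2.99 at 8 weeks (adjusted p = 0.00129). Tmed6, of the secretory pathway, rose by 1.08 with age in the β fraction (adjusted p = 0.00832). Pdia2, a pancreatic disulfide isomerase, had the members' direction with age without being called. It was estimated at 2.30 in β-cells (adjusted p = 0.0642) and at 2.89 in non-β-cells (adjusted p = 0.187).

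The factors of the acinar complex themselves were near the detection limit. Ptf1a had 0 to 27 counts in β libraries at 8 weeks, 0 to 18 in non-β libraries at 8 weeks, 0 to 1 in β libraries at 4 weeks and 0 in each non-β library at 4 weeks. Rbpjl had at most 7 counts in any library. Neither passed the filter, so neither was tested. Prss1 and Cela3a, which share sequence with members or their relatives, were listed at 0 in every library.

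**Figure D5:**
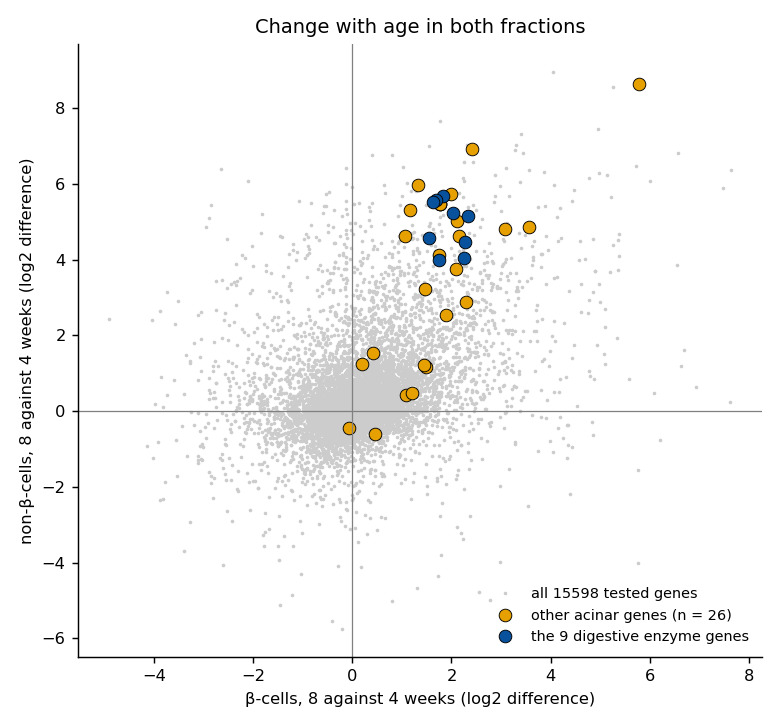
Log2 difference between 8 and 4 weeks in β-cells (horizontal axis) and in non-β-cells (vertical axis) for the 15598 tested genes (grey), the 26 other acinar genes (orange) and the 9 digestive enzyme genes (blue). The 2 axes share no library. The 9 members lie between 1.54 and 2.33 in β-cells and between 3.98 and 5.68 in non-β-cells, while some other acinar genes lie near 0.

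The members varied together over the 12 libraries. Pearson's r between the log2 levels of 2 members had a median of 0.979 over 36 pairs (range 0.856 to 0.994), and a median of 0.961 (0.471 to 0.996) for deviations from group means. The points share libraries, scaling and the group differences, and the values are a description. Both measures include the 4-week non-β library numbered 2, where 5 members were at 0. Log2 levels there depend on the prior count of 2, and r without that library was not computed. Over the same 12 libraries, the other tested genes whose level was most like the members' mean were Amy2b (r = 0.994), Ctrl (0.993), 2210010C04Rik (0.987), Klk1 (0.982), the 3 identical Amy2a genes (0.982), Try4 (0.979), Try5 (0.973) and Pnliprp1 (0.965).

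By deviations from group means the 10 genes most like the members were Try4 (0.986), Amy2b (0.981), Ctrl (0.981), 2210010C04Rik (0.960), Klk1 (0.955), Prodh and ENSMUSG00000111321 (both 0.944), Serinc2 (0.943), Entr1 (0.942) and Kcnq1 (0.942). Try4, Amy2b, Ctrl, 2210010C04Rik and Klk1 were thus in both lists. Prodh and ENSMUSG00000111321 also had the same mean level, so they may not be separate measurements. Mean log2 CPM was low for both, at 0.03, and for Kcnq1, at -0.02. Ctrl encodes a chymotrypsin-like protease, Klk1 a tissue kallikrein and Try4 and Try5 trypsins. The acinar genes Bhlha15 and Nr5a2 had r of 0.15 and -0.12 by level.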

How the data were processed

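Strand-specific total RNA libraries of sorted NOD islet cells were single-end sequenced. The study's methods state that the authors cleaned reads with fastp, assigned them to Ensembl release 98 transcripts (GRCm38) with kallisto, and summed transcripts to genes with tximport, and the deposited values are estimated counts per gene, neither scaled nor filtered. Software versions are not given in the sources used here. From 14.0% to 19.3% of a library's values were not whole, since reads shared by similar transcripts are divided among them.

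Estimated counts were rounded. Genes over 1 CPM in at least 3 of 12 samples were kept (15598 of 52962), scaled by TMM (edgeR 4.0.16) and fitted by limma-voom (R 4.3.3, limma 3.58.1) as 1 model with a mean per group and no covariate, two-sided, with Benjamini-Hochberg adjustment over all tested genes. Log2 CPM used a prior count of 2. Symbols came from GENCODE M21, which paired 51916 identifiers. Transcript lengths per kilobase are means over coding transcripts. Intervals and floors (3 counts) cover counting error only. The model was tested on simulated counts.

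Alternatives were DESeq2 1.42.0, the quasi-likelihood test of edgeR, other scalings, no filter, sample quality weights, a replicate block, left-out replicates and left-out library pairs. The members, lists, comparisons and alternatives were chosen with earlier results of these data known. Named genes are the 9 members, the 2 highest tested genes of each role among other acinar genes, list genes called in a comparison counted at 5 or fewer, and the 10 genes most like the members by each measure. Ptf1a, Rbpjl, Prss1, Cela3a, Ins2 and Iapp were named after their values had been seen. The values of 1 gene that the rule names are not reported here.

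Replicate numbers come from the description labels. Nothing there says that equal numbers mark shared islets, and p-values measure the spread between these samples. Equal numbers were not read as pairs, and a fit with the replicate block is given only as an alternative.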

Additional observations from a re-analysis of the deposited data

How the results depend on the processing

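All 747 values of single members under 22 alternatives kept their direction, and the scale of the summed level changed no value beyond 1 SD. The number of members called did change. For β-cells by age (5 called) it was 3 with edgeR, 1 with DESeq2, 3 with no filter on low counts, 9 with sample quality weights, 9 with the replicate block, 3 without both 4-week libraries numbered 3 and 2 without both numbered 2, and 1 to 4 when 1 replicate was left out. For non-β-cells by age (2 called) it was 8 with edgeR, 9 with DESeq2, 8 with the replicate block, 1 without both 4-week libraries numbered 3, 6 without both 8-week libraries numbered 1, and 1 to 3 with 1 replicate left out. For β against non-β at 4 weeks (1 called) it was 8 with edgeR, 7 with DESeq2, 4 with sample quality weights, 8 with the replicate block, 0 without both libraries numbered 3, and 1 to 2 with 1 replicate left out. At 8 weeks (0 called) it was 9 with sample quality weights, 7 with the replicate block, 6 without both libraries numbered 1, and 0 to 9 with 1 replicate left out. For the interaction (0 called) it was 2 with the replicate block and 0 with each replicate left out. The causes were not tested. Same-numbered β and non-β deviations from group means correlated across all tested genes at r of 0.08, 0.13 and 0.31 at 4 weeks and 0.02, 0.05 and 0.01 at 8 weeks. Different numbers reached 0.11 at 4 weeks, where 2 of 3 β libraries correlated best with their own number. Over the 10276 genes with a mean log2 CPM above 3, same-numbered r was 0.29, 0.43 and 0.67 at 4 weeks. At 8 weeks it was 0.12, 0.16 and -0.07. Different numbers reached 0.43 at 4 weeks over those genes, where again 2 of 3 β libraries correlated best with their own number. The numbers are shared labels only, so the block is no paired result. Omitting the library pairs numbered 1 and 2 was chosen after seeing the data.

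Of all tested genes, 2799 were called for β-cells by age, against 5382 with sample quality weights and 1684 to 2495 with 1 replicate left out. For the interaction it was 800, against 1562 with DESeq2, 2384 with sample quality weights, 1879 with the replicate block, 1455, 434 and 399 without the 4-week libraries numbered 3, those numbered 2 or the 8-week libraries numbered 1, and 450 to 984 with 1 replicate left out. Counts under 3 limit the 4-week non-β library numbered 2 most, where 5 members are at 0.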
